A study of Mus musculus with 38 samples.

Results

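The genes of the MHC class II pathway and its transactivator were examined in the mouse hypothalamus in viral and transgenic models of Huntington's disease (HD). The group holds 6 genes of 19,937 that have at least 1 probe set with a single gene symbol, namely *Cd74*, *H2-Aa*, *H2-Ab1*, *H2-Eb1*, *H2-DMa* and *Ciita*. They were chosen by name, and all 6 were measured, each by 1 probe set. *Cd74*, *H2-Aa* and *H2-Ab1* rose strongly after injection of either vector, by 2.53-fold to 11.23-fold, whereas no change of *Ciita* passed the test. The rises of these 3 genes in injected mice exceeded those in BACHD mice of both ages. In BACHD mice at 10 months the values of *Cd74* lay 2.00-fold above WT on average, which did not pass adjustment over all probe sets.

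All 38 mice were females of the FVB/N strain, with 1 array of hypothalamic RNA each. The 18Q group (n = 5) and the 79Q group (n = 8) were WT mice that had received bilateral hypothalamic injections of rAAV5 vectors at 8 weeks of age and were sacrificed 4 weeks later, at 12 weeks. AAV-HTT853-18Q and AAV-HTT853-79Q encode the first 853 amino acids of huntingtin (HTT) with 18 or 79 CAG repeats, driven by the human Synapsin-1 promoter, which restricts expression to neurons. The WT control mice of this experiment (n = 5) were of the same age and were not injected, so that surgery, the AAV capsid, the cargo and the HTT fragment cannot be told apart in 18Q vs. WT or 79Q vs. WT. BACHD mice carry full-length mutant HTT with 97 CAG repeats in all tissues. They were compared with age-matched WT mice at 2 months (n = 6 and n = 6) and at 10 months (n = 5 and n = 3).

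MHC class II molecules are heterodimers of an alpha and a beta chain that carry peptides from endosomes to the cell surface, where CD4+ T cells read them. *Cd74* encodes the invariant chain, which fills the groove of a new class II molecule and guides it to endosomes, and *H2-DMa* encodes the alpha chain of the exchange factor that helps to replace the last piece of it with a peptide. *Ciita* encodes the class II transactivator, a protein that binds no DNA itself and is recruited to the promoters of class II genes by factors on the X and Y boxes. In the brain, class II is known from border macrophages, dendritic cells and B cells, and microglia can gain it after interferon-gamma or injury.

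The values are log2 intensities after Robust Multi-Array Averaging (RMA), in which a difference of 1 stands for a doubling. The arrays of the AAV experiment, of 2 months and of 10 months were taken as normalized in 3 separate runs. This was inferred from identical values between arrays and is not stated in the labels. Levels were compared within a run only. The median intensity of an array was between 7.16 and 7.46, and the values of *Ciita* were under the median of their array in all 38 arrays. Those of *Cd74* and *H2-Aa* were also under it in all WT control mice and all mice at 2 months. The same held for *H2-Ab1* in all mice at 2 months and at 10 months. At 10 months it also held for *H2-Aa* in all WT mice and in BACHD replicates 3 and 4, and for *Cd74* in WT replicates 1 and 2. Both AAV comparisons used the same 5 WT control mice. The tissue was measured in bulk, where more cells of a type and more RNA per cell cannot be told apart. FVB/N mice carry another haplotype of the H2 complex than the C57BL/6J reference, and how well the probes match FVB/N alleles was not tested. Unless stated otherwise, adjusted p values are from limma with Benjamini-Hochberg adjustment over all 34,760 probe sets.

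*Cd74*, the invariant chain, showed the largest rise of the 6 genes in both AAV comparisons. The 5 WT control mice had log2 intensities of 6.76, 6.36, 6.50, 6.83 and 6.55 for *Cd74* (probe set 10456005). The 5 18Q mice had 10.04, 9.91, 10.46, 10.43 and 8.80, and the 8 79Q mice ranged from 9.12 to 10.94 with a median of 10.07. All 13 injected mice were thus above all control mice, and 18Q replicate 6 was the lowest of them. The increase was 10.05-fold in 18Q vs. WT (log2(FC) 3.33, SE 0.30, adjusted p = 4.28e-06) and 11.23-fold in 79Q vs. WT (log2(FC) 3.49, SE 0.27, adjusted p = 6.21e-07).

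The alpha chain gene *H2-Aa* (probe set 10450154) behaved in the same way. Control mice had log2 intensities of 5.56, 5.42, 5.19, 5.74 and 5.20, the 18Q mice 8.64, 8.43, 8.90, 9.13 and 7.58, and the 79Q mice 7.92 to 9.64 with a median of 8.72. Again no injected mouse reached down to the controls, and 18Q replicate 6 and 79Q replicate 3 were the lowest of their groups. The rise was 8.65-fold in 18Q vs. WT (log2(FC) 3.11, SE 0.28, adjusted p = 3.72e-06) and 10.08-fold in 79Q vs. WT (log2(FC) 3.33, SE 0.25, adjusted p = 4.78e-07).

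*H2-Ab1* (probe set 10444291), which encodes the beta chain that pairs with H2-Aa, rose less on this log2 scale. Its log2 intensities were 7.46, 6.92, 7.01, 6.72 and 6.65 in the control mice, 8.45, 8.29, 8.58, 8.61 and 7.53 in the 18Q mice and 7.95 to 8.91 in the 79Q mice, with a median of 8.45. The groups did not overlap, but 18Q replicate 6 (7.53) was close to WT control replicate 1 (7.46). The increase was 2.53-fold in 18Q vs. WT (log2(FC) 1.34, SE 0.20, adjusted p = 0.000747) and 2.83-fold in 79Q vs. WT (log2(FC) 1.50, SE 0.18, adjusted p = 9.72e-05). Intensities of different probe sets are not comparable, and the smaller fold of *H2-Ab1* is therefore given as a value only.

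**Figure D1:**
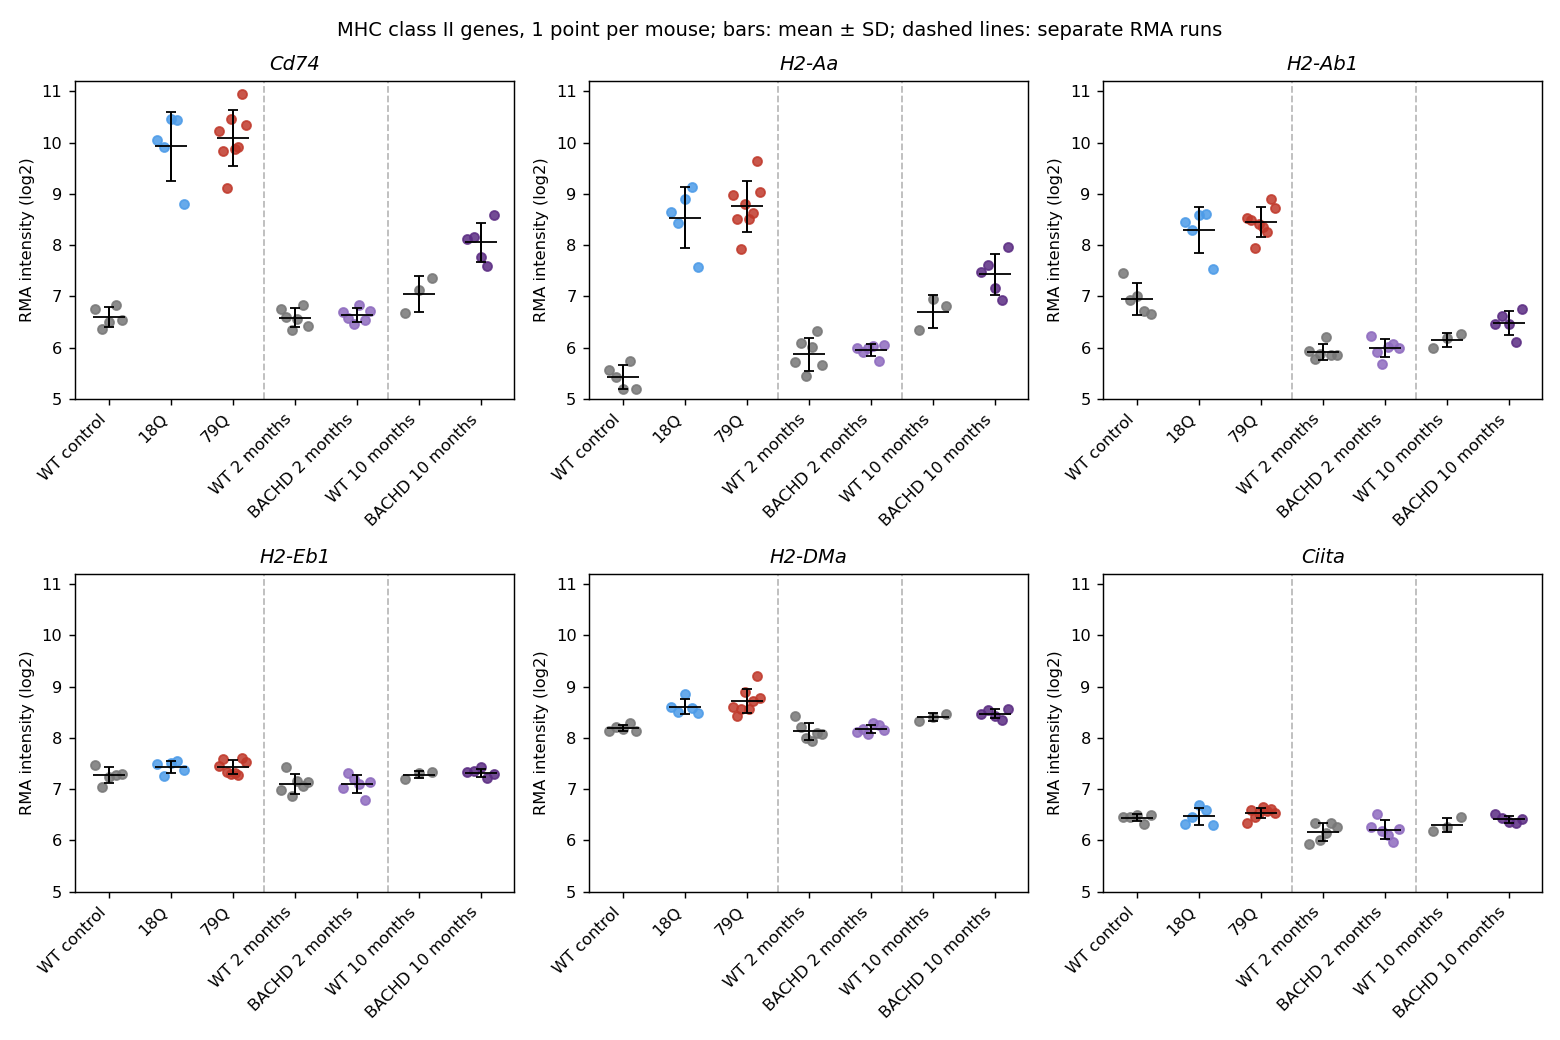
RMA log2 intensities of the 6 class II genes (vertical axis) in the 7 groups (horizontal axis), with 1 point per mouse and bars for the mean and SD. The dashed lines separate 3 sets of arrays taken as separate RMA runs, between which levels are not compared. *Cd74*, *H2-Aa* and *H2-Ab1* are higher in all 13 injected mice than in the 5 WT control mice, and *Cd74* is higher in all 5 BACHD mice than in the 3 WT mice at 10 months.

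*H2-DMa* (probe set 10444229), the exchange factor chain, rose by a smaller amount in 79Q mice. The control mice had log2 intensities of 8.14, 8.22, 8.17, 8.29 and 8.13, the 18Q mice 8.61, 8.51, 8.85, 8.57 and 8.48, and the 79Q mice 8.42 to 9.20 with a median of 8.66. No injected mouse overlapped with a control. The difference passed in 79Q vs. WT (1.44-fold, log2(FC) 0.53, SE 0.10, adjusted p = 0.00633) but not in 18Q vs. WT (1.33-fold, log2(FC) 0.41, SE 0.11, adjusted p = 0.0649). With only the 10 arrays of 18Q and WT control in the fit, the adjusted p for 18Q vs. WT was 0.0117. With the replicate number as a block neither comparison passed (adjusted p = 0.0636 for 79Q and 0.155 for 18Q).

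*H2-Eb1* (probe set 10444298) encodes the beta chain of the second class II isotype. Its log2 intensities were 7.48, 7.05, 7.24, 7.28 and 7.29 in control mice, 7.48, 7.25, 7.51, 7.55 and 7.37 in 18Q mice and 7.27 to 7.60 in 79Q mice, with a median of 7.40. The 3 groups overlapped throughout. The log2(FC) was 0.16 in both comparisons (adjusted p = 0.443 for 18Q vs. WT and 0.372 for 79Q vs. WT). For the signal of this probe set, the 95% intervals of −0.01 to 0.34 and −0.00 to 0.32 leave out changes of the size seen for *H2-Aa*. How well this probe set follows the *H2-Eb1* RNA of FVB/N mice was not tested, so the intervals set no limit on that RNA.

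For the transactivator *Ciita* (probe set 10433507) no change was detected. The control mice had log2 intensities of 6.47, 6.46, 6.50, 6.32 and 6.49, the 18Q mice 6.33, 6.46, 6.68, 6.60 and 6.30, and the 79Q mice 6.33 to 6.64 with a median of 6.56. Injected mice lay on both sides of the controls. The log2(FC) was 0.03 in 18Q vs. WT (95% interval −0.12 to 0.18, adjusted p = 0.935) and 0.09 in 79Q vs. WT (95% interval −0.05 to 0.23, adjusted p = 0.597). These intervals apply to the signal of this 1 probe set in whole hypothalamus, at intensities below the array median. How well this signal follows the *Ciita* RNA was not tested. The intervals therefore set no limit on that RNA and say nothing about *Ciita* in single cells.

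In all, 3 of the 6 genes were called higher in 18Q vs. WT, where 1.81% of all probe sets were, and 4 of the 6 in 79Q vs. WT, where 1.49% were. In each of both comparisons 4 of the 6 genes had injected mice entirely above the controls, against 2.57% and 1.77% of all probe sets. The median log2(FC) of the 6 genes was 0.88 and 1.02, and that of all probe sets −0.01 and −0.02. By exact two-sided permutation of the mice, *Cd74*, *H2-Aa*, *H2-Ab1* and *H2-DMa* gave the smallest p that the group sizes allow, 0.00794 for 5 against 5 and 0.000777 for 8 against 5 mice.

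The length of the CAG repeat made no detectable difference to these genes. In 79Q vs. 18Q the log2(FC) was 0.16 for *Cd74* (95% interval −0.41 to 0.73), 0.22 for *H2-Aa* (−0.31 to 0.75), 0.16 for *H2-Ab1* (−0.22 to 0.54), 0.12 for *H2-DMa* (−0.10 to 0.33), −0.01 for *H2-Eb1* (−0.17 to 0.15) and 0.06 for *Ciita* (−0.07 to 0.20). None of the 6 was called by limma and none had an unadjusted p under 0.05, with 0% of all probe sets called and 4.24% at an unadjusted p under 0.05. Leaving out 18Q replicate 6, the lowest 18Q mouse, turned *Cd74* to −0.12, *H2-Aa* to −0.02 and *H2-Ab1* to −0.03.

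Because *H2-Aa* rose and no change of *H2-Eb1* passed, their promoters are shown side by side. The RefSeq promoter windows (GRCm38.p6, C57BL/6J reference, 250 bases before to 50 after the start) hold 1 window each for these genes and 2 for *H2-DMa*, and the other members were not analysed for promoters here. Capitals mark GCAAC, taken here as a core of the X box, GATTGG, the core of the Y box, and in *H2-Aa* also TGACGTCA, the cAMP response element.

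H2-Aa, chr17:34287774-34288073, minus strand: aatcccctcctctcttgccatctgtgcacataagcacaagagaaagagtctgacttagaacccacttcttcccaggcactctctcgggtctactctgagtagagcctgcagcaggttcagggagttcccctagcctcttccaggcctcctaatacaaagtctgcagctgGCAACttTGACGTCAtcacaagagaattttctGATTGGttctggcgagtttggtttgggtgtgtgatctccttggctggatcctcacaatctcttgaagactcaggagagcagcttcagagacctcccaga

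H2-Eb1, chr17:34305617-34305916, plus strand: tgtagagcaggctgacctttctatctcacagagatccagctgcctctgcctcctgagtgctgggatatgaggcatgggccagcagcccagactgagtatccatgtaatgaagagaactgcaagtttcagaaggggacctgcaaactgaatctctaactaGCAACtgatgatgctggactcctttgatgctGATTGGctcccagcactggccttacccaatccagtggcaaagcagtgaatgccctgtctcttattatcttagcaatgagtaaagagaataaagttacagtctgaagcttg

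Both windows hold GCAAC followed on the same strand by GATTGG, with 27 bases between them in *H2-Aa* and 26 in *H2-Eb1*. Relative to the start, the first base of GCAAC lies at −81 in *H2-Aa* and at −91 in *H2-Eb1*. The pair of motifs with a gap of 20 to 30 bases, searched on both strands, occurs in 67 of 32,851 promoter windows (0.204%), whereas GCAAC alone occurs in 35.2%, GATTGG alone in 16.1% and TGACGTCA in 1.79%. The motifs do not overlap each other. Letters and gap were chosen after the class II windows had been read, so that their presence in these windows is a description. In neither window of *H2-DMa*, which rose in 79Q mice, was the pair found in these letters, nor in the windows of *H2-DMb1* and *H2-DMb2*.

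The same arrangement is found in 3 further class II genes, shown here with 5 bases on each side. *H2-Eb2* is a second beta chain gene, and *H2-Oa* and *H2-Ob* encode the chains of H2-O, an inhibitor of the exchange factor.

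H2-Eb2, chr17:34325538-34325584, plus strand: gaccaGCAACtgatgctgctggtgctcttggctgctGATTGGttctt

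H2-Oa, chr17:34092298-34092345, plus strand: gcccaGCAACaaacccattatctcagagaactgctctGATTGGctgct

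H2-Ob, chr17:34238813-34238857, plus strand: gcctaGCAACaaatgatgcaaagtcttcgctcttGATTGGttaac

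The 5 genes with the pair ranged in 79Q vs. WT from a log2(FC) of 0.16 for *H2-Eb1* to 3.33 for *H2-Aa*, with 0.21 for *H2-Eb2*, 0.23 for *H2-Oa* and 0.29 for *H2-Ob*. Only *H2-Aa* and *H2-Ob* of these 5 passed in that comparison. The pair is thus present in genes whose probe sets showed large and small differences.

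In BACHD mice at 2 months of age no difference from WT was detected for any of the 6 genes. For *Cd74* the 6 BACHD mice ranged from 6.46 to 6.83 with a median of 6.64 and the 6 WT mice from 6.35 to 6.83 with a median of 6.58. For *H2-Aa* they ranged from 5.75 to 6.06 (median 6.0) and from 5.44 to 6.32 (median 5.86), and for *H2-Ab1* from 5.69 to 6.23 (median 6.01) and from 5.78 to 6.21 (median 5.87). The groups overlapped for each of these genes. The log2(FC) of the 6 genes was between −0.01 for *H2-Eb1* and 0.09 for *H2-Aa*, and no 95% interval reached beyond 0.37. No member was called by limma (0% of all probe sets) or had an unadjusted p under 0.05, as 4.09% of all probe sets did. Markers of neighbouring tissues varied between these mice. The mean log2 intensity of 6 pituitary markers ranged from 6.57 to 10.37, that of 5 choroid plexus markers from 7.13 to 10.14 and that of 5 thalamus markers from 8.15 to 10.28 over the 12 mice, and the part of this in the class II values was not tested.

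At 10 months *Cd74* was higher in each BACHD mouse than in each WT mouse. The BACHD mice had log2 intensities of 8.13, 8.17, 7.77, 7.60 and 8.59 and the WT mice 6.67, 7.13 and 7.36. The difference was 2.00-fold (log2(FC) 1.0, SE 0.24, 95% interval 0.46 to 1.54). Its unadjusted p was 0.00274 and its adjusted p 0.997, and the exact permutation p was 0.0179, the smallest that 5 against 3 mice allow.

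For *H2-Aa* the BACHD mice had 7.47, 7.62, 7.17, 6.93 and 7.96 and the WT mice 6.34, 6.95 and 6.81. A single BACHD mouse, replicate 4, fell below the highest WT mouse. The log2(FC) was 0.73 (1.66-fold, SE 0.24, unadjusted p = 0.0146, adjusted p = 0.997, exact permutation p = 0.0536). For *H2-Ab1* the BACHD mice had 6.47, 6.62, 6.47, 6.11 and 6.75 and the WT mice 5.99, 6.19 and 6.27, with a log2(FC) of 0.33 (1.26-fold, SE 0.14, unadjusted p = 0.0399, adjusted p = 0.997, exact permutation p = 0.0893). Here too BACHD replicate 4 was the only BACHD mouse within the range of WT.

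The other members differed little at 10 months. *H2-DMa* ranged from 8.34 to 8.57 in BACHD and from 8.32 to 8.47 in WT mice (log2(FC) 0.07, 95% interval −0.08 to 0.21), *H2-Eb1* from 7.21 to 7.43 and from 7.20 to 7.33 (log2(FC) 0.04, 95% interval −0.09 to 0.18), and *Ciita* from 6.34 to 6.52 and from 6.18 to 6.46 (log2(FC) 0.11, 95% interval −0.05 to 0.28). None of the 6 members was called by limma, as was no probe set of the array (0%). At an unadjusted p under 0.05, 3 of the 6 were higher, as were 2.55% of all probe sets, and 1 of the 6 had groups that did not overlap with BACHD higher, as had 1.93% of all probe sets. The difference of *Cd74* was between 0.81 and 1.15 when each of the 8 mice was left out in turn. Markers of neighbouring tissues varied at 10 months too. The mean of the 6 pituitary markers was 6.42 to 8.15 in BACHD and 6.13 to 7.93 in WT mice. That of the 5 thalamus markers was 8.61 to 9.76 in BACHD and 8.34 to 9.14 in WT mice. For the 5 choroid plexus markers it was 7.26 to 7.66 and 7.40 to 7.73. The part of these tissues in the class II values was not tested.

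**Figure D2:**
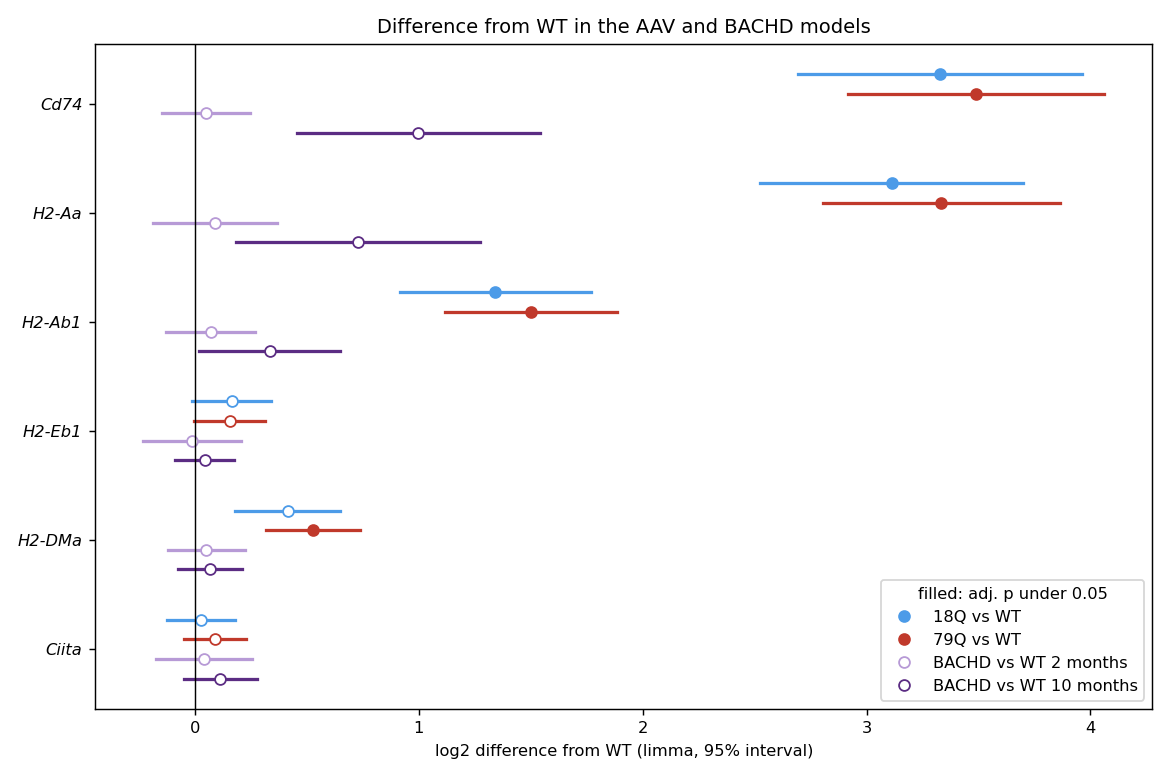
Log2 difference from WT (horizontal axis) of the 6 class II genes (vertical axis) in 18Q, 79Q and BACHD mice at 2 and 10 months, with 95% intervals of limma and filled points where the adjusted p is under 0.05. The differences of *Cd74* are 3.33 and 3.49 in injected mice, 0.05 in BACHD mice at 2 months and 1.0 at 10 months, whereas those of *Ciita* stay between 0.03 and 0.11.

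The effects of the vectors and of the transgene were then set against each other by testing the difference between the effects in 1 fit of all 38 arrays, each effect being taken against the WT mice of its own run. The effect on *Cd74* was larger by 3.28 log2 units in 18Q mice than in BACHD mice at 2 months (SE 0.33, adjusted p = 2.96e-08) and by 2.33 than at 10 months (SE 0.38, adjusted p = 0.000207). In 79Q mice the corresponding differences were 3.44 (SE 0.32, adjusted p = 5.14e-09) for 2 months and 2.49 (SE 0.36, adjusted p = 4.95e-05) for 10 months. For *H2-Aa* the 4 differences of effects lay between 2.38 and 3.25, with adjusted p values of 9.69e-05 or below. The effects on both genes were thus larger in injected mice than in BACHD mice of either age, and this held with each mouse left out in turn.

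For *H2-Ab1* the effect was larger by 1.27 in 18Q (adjusted p = 0.000506) and 1.43 in 79Q mice (adjusted p = 4.75e-05) than in BACHD mice at 2 months, and by 1.01 (adjusted p = 0.0445) and 1.17 (adjusted p = 0.00873) than at 10 months. The difference between 18Q and BACHD at 10 months did not pass in 14 of the 18 fits that left out 1 mouse each, with adjusted p values of up to 0.174. *H2-DMa* passed only for 79Q against BACHD at 2 months (0.48, adjusted p = 0.0365), a call that was lost in 12 of 25 such fits. For *H2-Eb1* and *Ciita* no difference of effects passed, with values between −0.09 and 0.18. Against BACHD at 2 months 3 of 6 genes were called for 18Q and 4 for 79Q, where 1.49% and 1.25% of all probe sets were called in that direction, and against BACHD at 10 months 3 of 6 for both vectors, where 0.886% and 0.619% were.

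Within BACHD mice the effect on *Cd74* was larger at 10 than at 2 months by 0.95 log2 units (SE 0.36, 95% interval 0.21 to 1.68, unadjusted p = 0.0133, adjusted p = 0.986). For *H2-Aa* the difference between the ages was 0.64 (SE 0.35, adjusted p = 0.986) and for *H2-Ab1* 0.26 (SE 0.25, adjusted p = 0.988). None of the 6 genes was called by limma, where 0.00288% of all probe sets were, and *Cd74* alone had an unadjusted p under 0.05, as 4.26% of all probe sets did.

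Several class II genes also varied together from mouse to mouse. After the group means were subtracted, *Cd74* and *H2-Aa* correlated over the 13 injected mice with a Pearson r of 0.97 (permutation p = 2e-05, adjusted p = 0.0009) and a Spearman rho of 0.96 (permutation p = 6e-05, adjusted p = 0.00135). *H2-Aa* and *H2-Ab1* had an r of 0.95 (permutation p = 4e-05, adjusted p = 0.0009) and a rho of 0.95 (permutation p = 6e-05, adjusted p = 0.00135). The adjustment here is over the 45 relations computed, which are the 15 pairs of members in 3 sets of mice. Without the 2 mice farthest from the median, 18Q replicate 6 and 79Q replicate 3, r was 0.94 and 0.90, and both relations still passed. The same 2 mice were the lowest of their groups for *Cd74*, *H2-Aa* and *H2-Ab1*, and 79Q replicate 7 was the highest for the same 3 genes and for *H2-DMa*.

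*Cd74* and *H2-DMa* correlated with an r of 0.71 (permutation p = 0.00875, adjusted p = 0.0373) and a rho of 0.84 (permutation p = 0.00081, adjusted p = 0.00911), with an r of 0.88 without these 2 mice. *Ciita* did not reach the threshold with any other member in injected mice. Its r was 0.24 to 0.51, with 0.51 for *Cd74* (permutation p = 0.107, adjusted p = 0.23) and a rho of 0.46 (permutation p = 0.143, adjusted p = 0.257), and r for *Cd74* was 0.23 without the 2 mice. *Ciita* spanned only 6.30 to 6.68 in these mice, where *Cd74* spanned 8.80 to 10.94.

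At 10 months *Cd74* and *H2-Aa* correlated over the 8 mice with an r of 0.95 (permutation p = 0.00423, adjusted p = 0.0317) and a rho of 0.83 (permutation p = 0.0302, adjusted p = 0.097), and *H2-Ab1* and *H2-DMa* with an r of 0.97 (permutation p = 0.00145, adjusted p = 0.0163) and a rho of 0.98 (permutation p = 0.00145, adjusted p = 0.013). In all, 6 of the 15 pairs passed by Pearson r at this age, those between *Cd74*, *H2-Aa*, *H2-Ab1* and *H2-DMa*. By Spearman rho, *H2-Aa* did not pass with *Cd74*, nor with *H2-DMa* (rho = 0.90, permutation p = 0.0125, adjusted p = 0.0511). Without the 2 mice farthest from the median, BACHD replicates 4 and 5, r of the 6 pairs was 0.84 to 0.98. The 6 mice then left were too few for a pair to pass the adjustment, and no test is drawn from them. At 2 months 1 of 15 pairs passed by Pearson r, *H2-Eb1* with *Ciita* (r = 0.75, permutation p = 0.00911, adjusted p = 0.0373, and rho = 0.68, permutation p = 0.0255, adjusted p = 0.0957). Without the 2 farthest mice its r was 0.62 and did not pass. At this age the r of *H2-Aa* with *Cd74* was 0.66 (permutation p = 0.0486, adjusted p = 0.146, and rho = 0.66, permutation p = 0.0428, adjusted p = 0.12), and it was 0.26 without WT replicates 3 and 5.

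**Figure D3:**
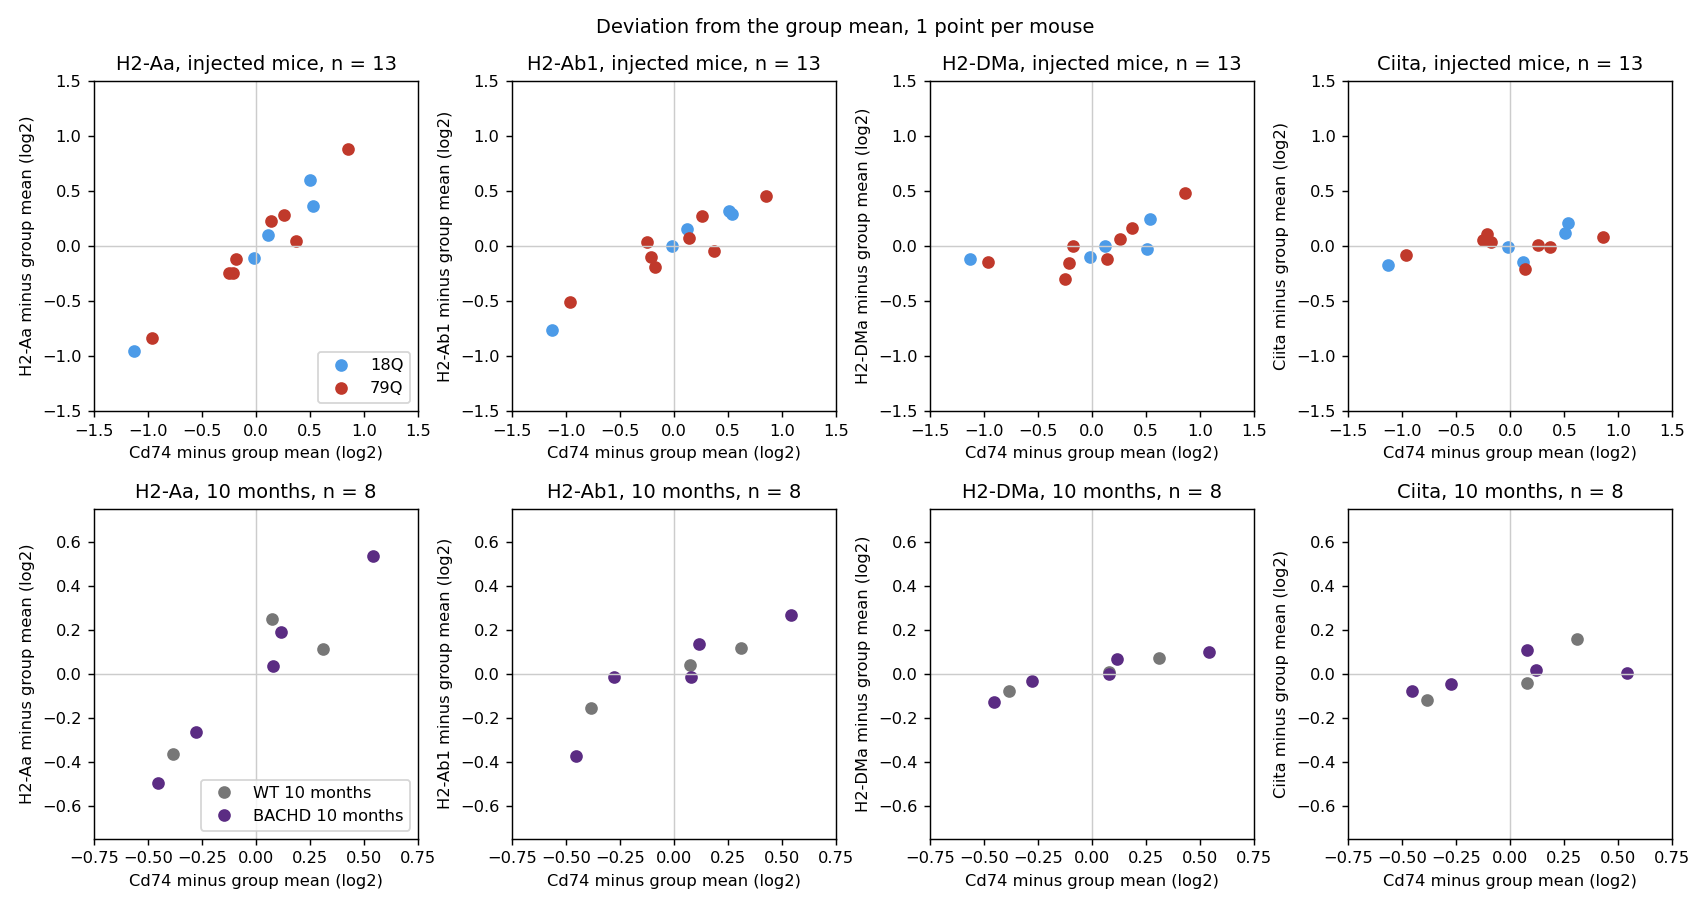
Deviation from the group mean in log2 units for *Cd74* (horizontal axes) and 4 other class II genes (vertical axes), with 1 point per mouse, for the 13 injected mice (upper row) and the 8 mice at 10 months (lower row, narrower scale). *H2-Aa* follows *Cd74* with an r of 0.97 in injected mice and 0.95 at 10 months, whereas *Ciita* varies over a narrow range.

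Of the other class II genes, 4 of 7 listed had a probe set of their own. In 18Q vs. WT none of the 4 passed by limma. All 4 were higher at an unadjusted p under 0.05, as were 6.15% of all probe sets there, and all 4 also with 79Q, where 5.65% of all probe sets were. By adjusted p, the 79Q comparison had 2 calls. The RNA of *H2-Ea*, an alpha chain gene, rose with a log2(FC) of 0.33 (SE 0.07, adjusted p = 0.0235) and that of *H2-Ob* with 0.29 (SE 0.07, adjusted p = 0.0327). Whether FVB/N mice make an H2-Ea chain was not tested. *H2-Oa* (0.23, adjusted p = 0.164) and *H2-Eb2* (0.21, adjusted p = 0.219) did not pass. The 2 genes of the H2-DM beta chain share 1 probe set, which had a log2(FC) of 0.24 in both comparisons (adjusted p = 0.163 for 18Q and 0.101 for 79Q). The classical pair *H2-Aa* and *H2-Ab1* and the invariant chain thus had larger log2(FC) than each of these further class II genes. That of *H2-Eb1* in 79Q vs. WT (0.16) was smaller than each of theirs. The values of the 4 genes with a probe set of their own were under the median of their array in all injected mice. Intensities of different probe sets are not comparable, and this order is given as values only.

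Of 9 genes for the endosomal processing of class II, 5 rose in both AAV comparisons and none fell. For this list and those that follow, 1.81% of all probe sets were called higher in 18Q vs. WT and 1.49% in 79Q vs. WT. *Ctss*, the protease cathepsin S, which cuts the invariant chain, had a log2(FC) of 1.66 in 18Q mice (SE 0.17, adjusted p = 2e-05). In 79Q mice its log2(FC) was 1.50 (SE 0.16, adjusted p = 1.85e-05). *Ifi30*, a lysosomal thiol reductase, reached 0.78 and 0.69, and the proteases *Ctsd*, *Ctsz* and *Ctsh* reached 0.42 to 0.76. *Lgmn* (0.20 and 0.14), *Ctsb*, *Ctsl* and *Cd83* did not pass. In BACHD mice at 10 months none of the 9 was called by limma or had an unadjusted p under 0.05, and *Ctss* had a log2(FC) of 0.11 (unadjusted p = 0.122).

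For the factors that bind the X and Y boxes no change was called. None of the 7 genes passed by limma in 18Q vs. WT, 79Q vs. WT or BACHD at 10 months, and in 79Q vs. WT their log2(FC) lay between −0.05 for *Rfx5*, an X-box subunit, and 0.11 for *Nfya*, a Y-box subunit. *Creb1*, which binds the cAMP response element, had 0.08 (adjusted p = 0.343). *Creb1* and *Nfya* had an unadjusted p under 0.05 in 18Q vs. WT, as did 1 of the 7 genes in 79Q vs. WT. At that threshold 6.15% and 5.65% of all probe sets were higher in these comparisons.

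Of 11 measured genes that act upstream of *Ciita*, 3 rose in both AAV comparisons. These were *Irf8* (0.83 in 18Q and 0.79 in 79Q, adjusted p = 0.00158 and 0.000983) and *Spi1* (1.08 and 0.85, adjusted p = 0.000274 and 0.00108), factors of myeloid cells, and *Irf1* (0.77 and 0.72, adjusted p = 0.00832 and 0.00701), a target of interferon. *Ifng*, which encodes interferon-gamma, had 0.06 and 0.04 (adjusted p = 0.874 and 0.917), and its receptor chain *Ifngr1* 0.26 and 0.09 (adjusted p = 0.0535 and 0.579). The values of *Ifng* were under the median of their array in all injected mice. How well its probe set follows the *Ifng* RNA was not tested.

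The class I pathway rose along with class II. Of 7 measured class I genes, 6 rose in both AAV comparisons, among them *B2m*, the light chain of class I (1.50 and 1.46, adjusted p = 1.1e-07 and 5.01e-08), and the peptide transporter *Tap1* (1.56, adjusted p = 0.000274, and 1.46, adjusted p = 0.000197). The immunoproteasome subunit *Psmb8* had 1.44 and 1.38 (adjusted p = 0.000277 and 0.000156). The class I genes *H2-K1* and *H2-D1* have no probe set of their own and are not among the 7. Probe set 10450075, which they share with a further symbol, had 2.52 and 2.42 (adjusted p = 1.26e-06 and 4.86e-07). Probe set 10444780, shared in the same way, had 1.69 and 1.61 (adjusted p = 2.13e-06 and 9.58e-07). *Nlrc5*, the transactivator of class I and a relative of *Ciita*, is covered by 19 probe sets. The probe set of highest mean had 0.24 and 0.18 (adjusted p = 0.17 and 0.253), but 12 of the 19 were called higher in each comparison, with a median log2(FC) over the 19 of 0.76 and 0.61. *Ciita* has a single probe set, so that a like check over several probe sets was not possible for it. In BACHD mice at 10 months no class I gene and none of the 19 *Nlrc5* probe sets was called.

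Some genes of T cell co-stimulation and some cell type markers were also called in injected mice. *Cd86*, a co-stimulatory ligand, rose with log2(FC) of 0.86 in 18Q and 0.73 in 79Q mice (adjusted p = 0.00221 and 0.00465), and *Lag3*, a class II receptor of T cells, rose by 1.05 and 0.81 (adjusted p = 0.00114 and 0.00526). *Cd40* (0.14 and 0.05) and *Cd80* (0.14 and 0.08) did not pass. Of 7 genes in this list, 3 passed in 18Q vs. WT and 2 in 79Q vs. WT.

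Of 12 measured microglia markers 6 rose in both comparisons, among them *Csf1r* (0.65 and 0.49, adjusted p = 0.000578 and 0.0038) and *Itgam* (0.79 and 0.68, adjusted p = 0.00312 and 0.00524). The mean log2 intensity of the 12 ranged from 8.09 to 8.44 in 18Q and from 8.05 to 8.49 in 79Q mice, above 7.82 to 7.92 in WT control mice. *P2ry12*, a marker of resting microglia, had 0.15 and 0.18 and did not pass. Of 8 markers of border macrophages 1 rose, *Ms4a7* (0.57 and 0.51, adjusted p = 0.00684 and 0.00803), and *Mrc1*, *Lyve1* and *Cd163* did not pass. Their mean ranged from 6.07 to 6.36 in injected and from 6.14 to 6.15 in control mice.

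Of 9 markers of dendritic cells 1 rose, *Itgax* (0.71 and 0.72, adjusted p = 0.0308 and 0.0144), with a mean over the 9 of 6.56 to 6.78 in injected and 6.52 to 6.64 in control mice. *Flt3*, *Zbtb46* and *Xcr1* had log2(FC) between −0.14 and 0.06. Of 6 B cell markers none passed by limma, with *Cd79a* at 0.62 and 0.58 (adjusted p = 0.115 and 0.0923), 3 in 18Q and 2 in 79Q higher at an unadjusted p under 0.05 (6.15% and 5.65% of all probe sets), and a mean over the 6 of 5.85 to 6.40 in injected and 5.86 to 5.96 in control mice.

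Of 6 plasma cell markers, *Jchain*, the joining chain of secreted antibody, had 4.50 in 18Q mice and 3.85 in 79Q mice (adjusted p = 8.29e-05 and 0.000156), and *Mzb1* passed in 18Q mice only (0.72, adjusted p = 0.0312, and 0.55, adjusted p = 0.0821). Their mean ranged from 6.83 to 8.07 in injected and from 6.53 to 6.72 in control mice. Of 8 T cell markers 4 rose in both comparisons, with *Cd3g* at 2.13 and 1.72 (adjusted p = 0.000728 and 0.00228), *Cd3e* at 0.70 and 0.55 (adjusted p = 0.00589 and 0.0193) and *Cd4* at 0.47 and 0.40 (adjusted p = 0.0273 and 0.0438). Their mean was 6.54 to 7.13 in injected and 6.17 to 6.33 in control mice. The part of these cell types in the rise of the class II genes was not tested.

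Of the other lists, monocyte markers had 1 of 5 genes called in 18Q vs. WT (*Fn1*, 0.38, adjusted p = 0.0369) and none in 79Q vs. WT, and neutrophil, neuron, oligodendrocyte and meningeal markers had none in either. Astrocyte and endothelial markers had 1 of 4 each in 18Q vs. WT and none in 79Q vs. WT. Markers of hypothalamic neurons had 1 of 14 genes lower in 79Q vs. WT (*Hdc*, −0.81, adjusted p = 0.00373). Their mean was 9.63 to 10.138 in 79Q mice, below all control mice (10.141 to 10.30), and 9.41 to 10.36 in 18Q mice. The mean of the 4 neuron markers ranged from 12.29 to 12.39 in control mice, from 12.20 to 12.31 in 18Q mice and from 12.22 to 12.33 in 79Q mice. The part of these markers in the class II values was not tested. Choroid plexus, thalamus and pituitary markers had none, although the mean of the pituitary markers ranged from 6.57 to 7.14 in control mice, from 7.01 to 8.50 in 18Q mice and from 6.67 to 8.23 in 79Q mice.

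In BACHD mice at 10 months no gene of the co-stimulation, microglia, border macrophage, dendritic, B cell, plasma cell and T cell lists was called by limma. At an unadjusted p under 0.05 the microglia, border macrophage, dendritic and B cell lists had none. The T cell list had *Cd8b1* (0.20, unadjusted p = 0.0439) and the plasma cell list *Mzb1* (0.17, unadjusted p = 0.0436), both higher, and the co-stimulation list had *Lag3* (−0.13, unadjusted p = 0.0413), which was lower. Of 5 neutrophil markers 2 were higher at an unadjusted p under 0.05, *Ly6g* (0.48, unadjusted p = 0.000803) and *Retnlg* (0.10, unadjusted p = 0.0468). Of all probe sets 2.55% were higher at that threshold, and none of them passed adjustment. The mean of the 12 microglia markers was 8.12 to 8.23 in BACHD and 8.06 to 8.22 in WT mice.

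**Figure D4:**
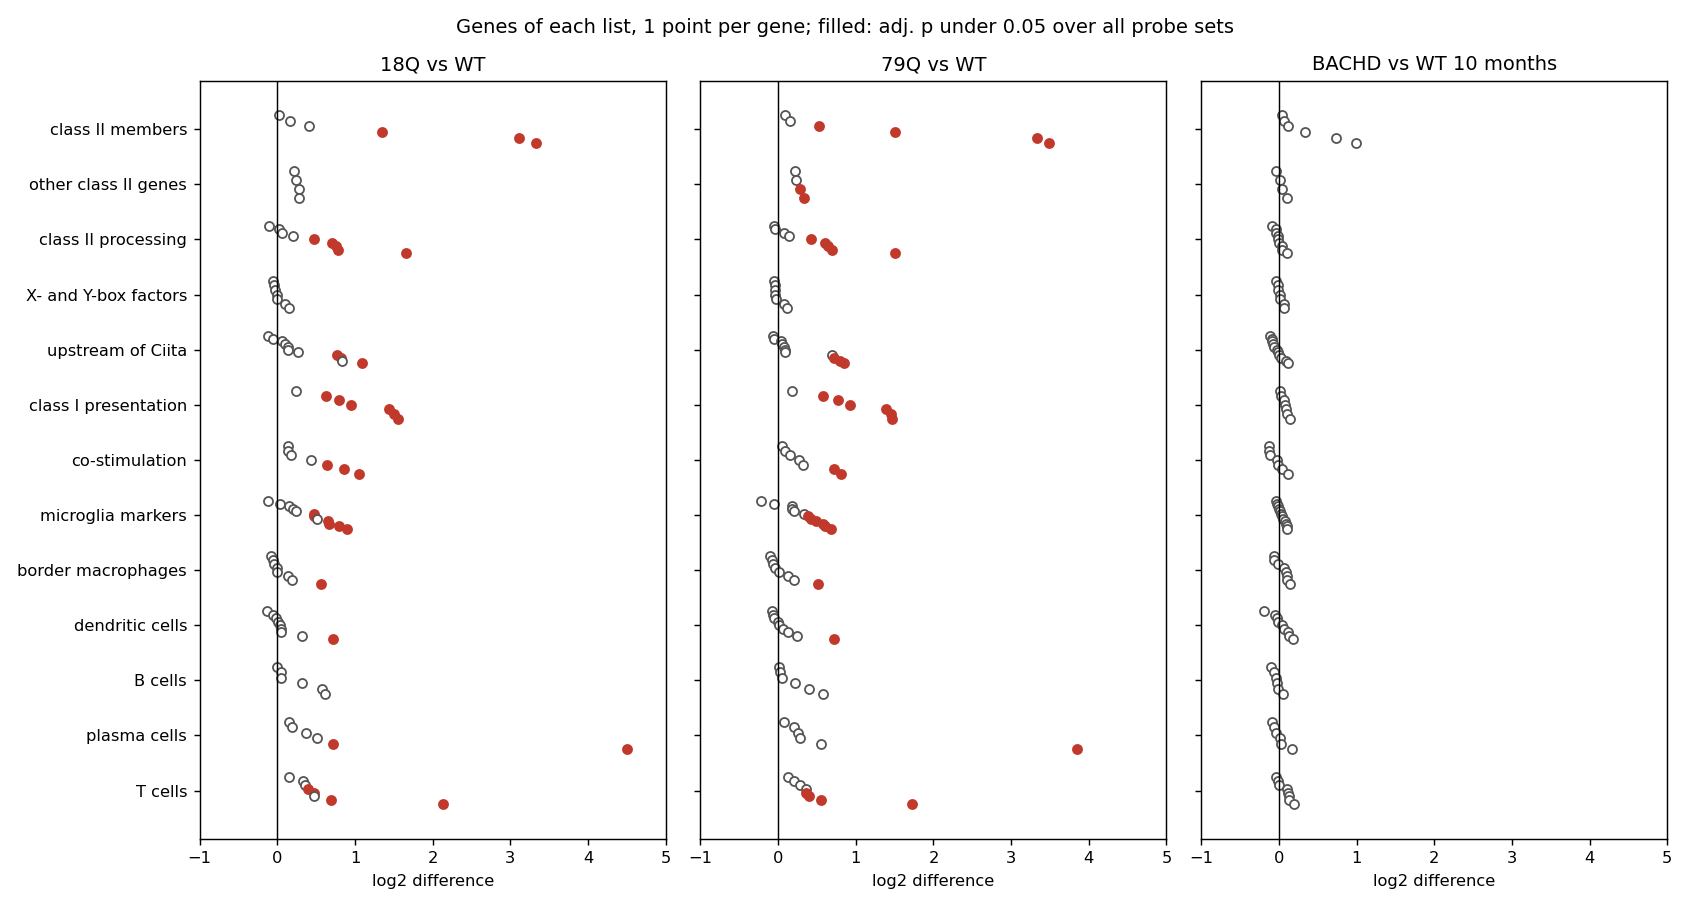
Log2 difference from WT (horizontal axes) of the genes of 13 lists (vertical axis), 1 point per gene, in 18Q, 79Q and BACHD mice at 10 months, with filled points where the adjusted p is under 0.05. Points are filled in 10 of the 13 lists in 18Q vs. WT and in 11 in 79Q vs. WT, and in none at 10 months, where *Cd74* is at 1.0.

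The genes most like the class II genes from mouse to mouse were then listed. Likeness was the Pearson r with the mean z-score of the 6 members over the 18 AAV arrays after subtraction of the group means, searched over 19,931 genes and given as a description. It was highest for *Csf3r*, the receptor of granulocyte colony-stimulating factor (r = 0.955), *Il10ra*, a receptor chain of interleukin-10 (0.950), *Itgb2*, the beta-2 integrin of leukocytes (0.948), *Gask1b* (0.946) and *Man2b1*, a lysosomal mannosidase (0.943). All 5 rose in 79Q vs. WT, with log2(FC) between 0.48 for *Gask1b* and 0.93 for *Csf3r*, and 4 in 18Q vs. WT, where *Gask1b* had 0.33 (adjusted p = 0.281). The members themselves had an r with the mean of the others of 0.90 for *Cd74*, 0.88 for *H2-Aa*, 0.83 for *H2-Ab1*, 0.57 for *H2-DMa*, 0.46 for *H2-Eb1* and 0.41 for *Ciita*. The genes most like *Ciita* were *Trex1*, a DNA exonuclease (r = 0.90), *Mss51* (0.88) and the transcription factor *Maf* (0.88), none of which passed in a comparison with WT.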

How the data were processed

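Affymetrix Mouse Gene ST arrays of 38 mice were used as deposited. The authors made the log2 intensities from the raw array files with RMA (R 4.1.1, affy 1.70.0, limma 3.48.3 per the submitters' processing notes). Identical values between arrays occurred only within the AAV, 2 months or 10 months arrays (up to 9, 17 and 22 per pair of arrays), which were therefore taken as separate RMA runs. Normalization within a run did not remove all overall shifts between its arrays. At 2 months the array medians ranged from 7.16 to 7.29 in BACHD mice and from 7.16 to 7.41 in WT mice. Groups came from the sample labels. Of 34,760 probe sets 21,640 have 1 symbol in the platform annotation, 1,321 several and 11,799 none, and the single-symbol probe set with the highest mean stood for a gene.

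Moderated linear models (limma 3.58.1 under R 4.3.3, with lmFit, contrasts.fit and eBayes) gave the differences for all probe sets, with 1 fit of the 18 AAV arrays, 1 fit per BACHD age, and 1 fit of all arrays with 7 group means for differences of effects. All p values are two-sided, the adjusted ones by Benjamini-Hochberg, and calls were made at 0.05. The steps were tested on simulated data. Single members were compared by exact permutation without adjustment, and correlations by 100,000 permutations within groups (Python 3.11.15, scipy 1.17.1). The number of arrays limits the precision, with a median SE of 0.06 to 0.09 for comparisons of 2 groups. The members and gene lists were chosen with earlier results of these data known. Named are all members, the 2 to 4 genes of a list that ranked first by p for 79Q against control, *Nlrc5*, *Ifng*, *Irf1*, *Rfx5* and the H2-O and H2-DM genes whatever their p, and the genes with the highest likeness. Further genes of the lists, most of which did not pass, were named after their values were seen. Monocyte, neutrophil, neuronal, glial, endothelial and tissue lists were counted for dissection and composition. Alternatives are given at the end.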

Additional observations from a re-analysis of the deposited data

Results flagged for a closer look

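The effects on 3 class II genes differed between the vectors and BACHD by the test of the difference itself. For 18Q against BACHD at 2 months the difference of effects was 3.28 for *Cd74*, 3.02 for *H2-Aa* and 1.27 for *H2-Ab1*, and against BACHD at 10 months 2.33, 2.38 and 1.01. For 79Q it was 3.44, 3.25 and 1.43 against 2 months and 2.49, 2.61 and 1.17 against 10 months, and for *H2-DMa* 0.48 against 2 months. These are 13 of the 30 differences of effects computed for the members.

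Of 36 combinations of a member and a group of 4 to 10 mice, 1 held a mouse that stood apart by Dixon's criterion at 95%. *Ciita* in WT control replicate 5 was 6.32, where the other 4 control mice were at 6.46 to 6.50. Chance alone flags about 1 in 20 such groups.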

How the results depend on the processing

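With either vector the calls of *Cd74*, *H2-Aa* and *H2-Ab1* against WT held under every alternative that could be fitted with them in it, with log2(FC) of *Cd74* between 3.20 and 3.61 for 18Q and between 3.37 and 3.63 for 79Q when 1 mouse was left out. Of 464 values of passing members under an alternative, 432 still passed and 32 did not, and none changed direction. The numbers of members called were within 1.5 times in 214 of 218 cases. The 4 others came from a filter that dropped probe sets with a mean below the median, which left 1, 1, 2 and 1 members called for 18Q against BACHD at 2 and 10 months and 79Q against BACHD at 2 and 10 months, because the filter removed members from the fit.

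Same-numbered mice of different groups did not deviate together (r under 0.1 in all pairs of the AAV and 10 months arrays and over 0.1 in 2 of 6 at 2 months), and the number was no pairing. With a replicate block *H2-DMa* in 79Q vs. WT had an adjusted p of 0.0636, *H2-Ab1* for 18Q against BACHD at 10 months 0.0781 and *H2-DMa* for 79Q against BACHD at 2 months 0.164, *Cd74* in 79Q vs. 18Q changed sign (−0.0032), as did *Ciita* for 18Q against BACHD at 2 months (0.000425), and 402 in place of 721 probe sets were called in 79Q vs. WT. Without 18Q replicate 4 or 6, 472 and 1129 in place of 735 probe sets were called in 18Q vs. WT, without WT control replicate 2 or 5, 476 and 439 in 79Q vs. WT, and with array weights 1092 there. For the differences of effects, array weights gave 537 in place of 313 probe sets for 18Q and 516 in place of 228 for 79Q against BACHD at 10 months, the filter gave 165 and 142 there and 324 in place of 572 for 18Q against 2 months, the replicate block gave 142 for 79Q against 10 months, and leaving out WT 2 months replicate 4 gave 845 in place of 528 for 79Q against 2 months. With all 38 arrays in 1 fit 3 in place of 0 probe sets were called in BACHD at 10 months, in 79Q vs. 18Q 1 in place of 0 without 18Q replicate 2 or 3 or 79Q replicate 5, and the 1 probe set called between the ages varied from 0 to 2.

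Signs of log2 differences changed otherwise only where no call had been made. With each array centred on its median these were *Ciita* in 18Q vs. WT (−0.0048, exact permutation p = 0.968) and for 79Q against BACHD at 2 months (−0.020), and *H2-Eb1* in 79Q vs. 18Q (0.0030, exact permutation p = 0.961), in BACHD at 2 months (0.038, exact permutation p = 0.693) and between the ages (−0.0033), and *H2-DMa* between the ages (−0.043). With array weights they were *H2-Eb1* in BACHD at 2 months (0.022) and *H2-DMa* between the ages (−0.028). When 1 mouse was left out, the ranges that crossed 0 were, in 79Q vs. 18Q, −0.12 to 0.30 for *Cd74*, −0.017 to 0.37 for *H2-Aa*, −0.031 to 0.24 for *H2-Ab1* and −0.055 to 0.021 for *H2-Eb1*; for *Ciita*, −0.025 to 0.071 in 18Q vs. WT, −0.022 to 0.089 in BACHD at 2 months, −0.065 to 0.050 for 18Q against BACHD at 2 months and −0.10 to 0.036 for 79Q against BACHD at 10 months; and, for *H2-Eb1*, −0.060 to 0.054 in BACHD at 2 months and −0.010 to 0.10 between the ages, and −0.044 to 0.053 for *H2-DMa* between the ages. *H2-Aa* in BACHD at 10 months had an exact permutation p of 0.0357 with centred arrays. Without the 2 farthest mice r changed sign to −0.0013 for *H2-DMa* and *Ciita* in injected mice. At 2 months it became 0.033 for *H2-Ab1* and *H2-DMa*, −0.10 for *H2-Eb1* and *Cd74*, −0.28 for *Cd74* and *Ciita* and 0.054 for *H2-DMa* and *Ciita*. At 10 months it became −0.87, −0.69 and −0.23 for *H2-Eb1* with *Cd74*, *H2-DMa* and *Ciita*.

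Another probe set per member could not be tried, since each member has 1. The age difference in BACHD was also fitted on the 20 BACHD and WT arrays alone, an alternative chosen after the data were seen, and no member was called there.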
